A study of Mus musculus with 4 samples.

Results

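The 4 ERBB receptor genes and 6 genes of their EGF-family ligands were followed in mouse mammary tumours with 1 or both copies of Elf5 intact. The genes are Egfr, Erbb2, Erbb3 and Erbb4 for the receptors, and Nrg1, Areg, Ereg, Hbegf, Tgfa and Btc for the ligands. They were found by Ensembl gene identifier through the GRCm38 GENCODE M21 annotation, and all 10 were present among the 51826 genes of the deposited table. All 10 also passed the filter on low counts, which left 21607 genes.

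Every tumour carried the C3-T transgene, so the controls carry it too, and the labels do not describe its promoter or give the age of the animals. HET tumours were Elf5+/- (2 libraries) and WT tumours were wild type, Elf5+/+ (2 libraries). Both HET titles share a leading number and differ in the tumour number (1 and 2), while the WT titles differ in the leading number, so both HET libraries may come from a single animal. Nothing in the labels says that the samples come from separate animals, so the p-values cover no more than the scatter of these libraries, which may be technical. After enzymatic digestion, cells were sorted with antibodies to leukocyte (CD45), endothelial (CD31) and erythroid (TER119) surface proteins to enrich tumour cells, and total RNA was sequenced.

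ERBB receptors are cell-surface tyrosine kinases that work in pairs. EGFR binds amphiregulin, epiregulin, TGF-alpha, betacellulin and HB-EGF, and ERBB4 binds several of these as well as neuregulins. ERBB3 binds neuregulins but has a weakly active kinase, and ERBB2 has no known ligand, so that each acts mainly with a partner. The ligands are made as membrane-bound precursors and are cut loose by metalloproteases. In the mammary gland, amphiregulin acting on EGFR is known for its part in ductal outgrowth, and neuregulin and ERBB4 are known for a part in alveolar differentiation.

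The ligands share a fold held by 6 cysteines. The coding stretch of this fold is shown because cysteine spacing differed between Nrg1 and the EGFR ligand genes Areg, Ereg, Tgfa and Btc. The letters come from the longest coding transcript of each gene in GENCODE M21 (GRCm38), run 5′ to 3′ on the coding strand, and have the cysteine codons in capitals. Each stretch is interrupted by an intron in the genome.
Nrg1: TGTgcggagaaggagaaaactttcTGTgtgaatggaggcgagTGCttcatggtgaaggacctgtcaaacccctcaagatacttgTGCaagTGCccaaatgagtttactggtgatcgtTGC
Areg: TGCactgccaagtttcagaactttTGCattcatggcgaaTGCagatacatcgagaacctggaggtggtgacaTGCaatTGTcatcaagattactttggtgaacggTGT
Ereg: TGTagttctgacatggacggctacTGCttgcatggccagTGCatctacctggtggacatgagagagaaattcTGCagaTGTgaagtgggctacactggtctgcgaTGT
Tgfa: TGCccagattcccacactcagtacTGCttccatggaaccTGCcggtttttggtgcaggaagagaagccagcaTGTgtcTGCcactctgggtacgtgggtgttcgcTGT
Btc: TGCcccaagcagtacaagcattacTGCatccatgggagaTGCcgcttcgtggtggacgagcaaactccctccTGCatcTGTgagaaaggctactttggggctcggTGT

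In Areg, Ereg, Tgfa and Btc the cysteine codons were separated by 7, 4, 10, 1 and 8 codons, and the stretch was 36 codons long. In Nrg1 the second gap was 5 codons and the third 13, which made the stretch 40 codons long. Among the ligands of equal length, Tgfa and Btc were the most alike with 67 of 108 bases identical (62%), and Ereg and Tgfa the least with 49 (45.4%). The stretches lie at chr8:31837698-31849398 (minus strand) for Nrg1, chr5:91143614-91144364 (plus) for Areg, chr5:91088496-91089111 (plus) for Ereg, chr6:86263200-86269960 (plus) for Tgfa and chr5:91362421-91366197 (minus) for Btc. Hbegf lies on chromosome 18, from 36504927 to 36515805 on the minus strand, and its sequence is not shown.

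The libraries held 14582943 and 12695132 counts in HET and 13152252 and 15307939 in WT. Single genes are given as CPM, that is counts over the TMM-scaled library size, and a count of 0 allows up to 3 counts, or 0.195 to 0.239 CPM, from counting error alone. Elf5, an ETS transcription factor of the mammary alveolar lineage (chromosome 2, 103411688 to 103450989), stood at 5.39 CPM in HET 1 and 10.6 in HET 2, against 35.6 in WT 1 and 4.70 in the other WT library. That library therefore lay below both HET libraries, and it is called the library labelled WT 2 throughout. Whether a gene is given as higher or lower in HET depends on that label being right, and counts over the whole gene do not show whether the deleted part is missing. Epithelial markers were present in every library, with sums over 6 genes of 2080 and 2120 CPM in HET, 3130 in WT 1 and 2870 in the library labelled WT 2. That library also stood apart in other cell types: pan-leukocyte markers summed to 24.4 CPM there, against 354 and 309 in HET and 321 in WT 1. Fibroblast markers summed to 21800 CPM there, against 3950 and 4930 in HET and 6560 in WT 1. Most of the sum there came from the collagen genes Col1a1 (9830 CPM), Col3a1 (6640) and Col1a2 (4470). The fibroblast sums exceeded the epithelial sums in every library. However, CPM sums of different lists are not per length and do not compare the amounts of cell types. Of the 8 fibroblast genes, 5 (62.5%) were lower in both HET libraries than in either WT library, against 15.9% of all genes tested, with 0 of the 8 at 0 in any library. In such bulk samples, fewer cells of a type and less RNA per cell cannot be told apart.

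None of the 10 genes passed the test of HET over WT. The edgeR quasi-likelihood test with Benjamini-Hochberg adjustment called 0% of the 21607 genes at an adjusted p under 0.05, and 817 genes (3.78%) had an unadjusted p under 0.05. Of the 10 genes, 0 had an unadjusted p under 0.05. DESeq2 called 134 genes and limma-voom 0, and neither called any of the 10. By CPM the HET and WT libraries overlapped for 9 of the 10 genes. The exception was Erbb3, whose HET values both lay under its WT values, as did those of 15.9% of all genes tested. Groups separated in either direction for 35.5% of all genes tested. On the per-length scale described below, which is not scaled by TMM, the groups overlapped for Erbb3. On that scale Erbb2 and Erbb4 instead had both HET values above both WT values. The share of all genes separated on that scale was not counted, so the separation of Erbb2 and Erbb4 cannot be set against a background. The difference between the genotype means exceeded the difference within both genotypes for 1 of the 10 genes, against 22% of all genes tested. The median log2 fold change was -0.21 over the receptors and 0.01 over the ligands, against 0.04 over all genes tested. For 1 gene at a time, the smallest p of an exact permutation test (two-sided, 2 against 2) is 0.33.

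Per unit of transcript length, ligand transcripts were more abundant than receptor transcripts in every library. Counts per kilobase of merged exons, scaled to the same total in each library (TPM), summed over the 6 ligands to 89.9 in HET 1 and 109 in HET 2, against 53.1 in WT 1 and 97.2 in the library labelled WT 2. The same sum over the 4 receptors was 42.4 and 38.2 in HET, against 35.5 in WT 1 and 37.6 in the library labelled WT 2. On this scale the receptor sum varied less than the ligand sum, which was lowest in WT 1. The sum of receptor CPM, which is TMM-scaled and not per length, was 265 and 205 in HET, against 256 in WT 1 and 314 in the library labelled WT 2.

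**Figure D1:**
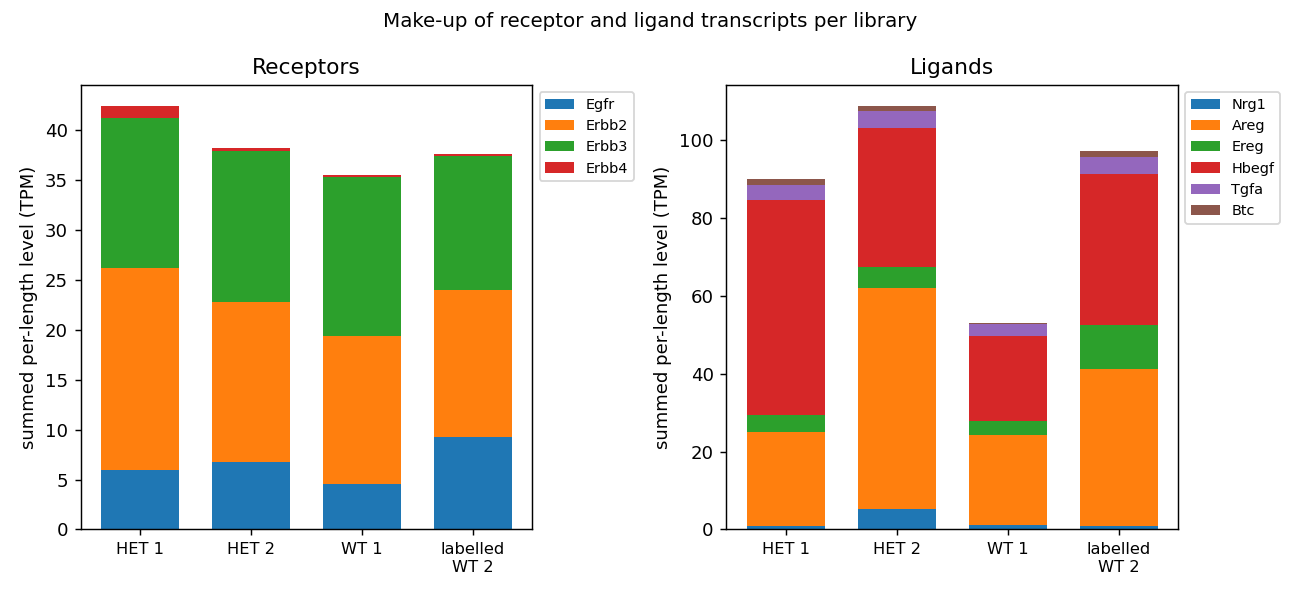
Summed per-length level (TPM, vertical axis) of the receptor genes (left) and ligand genes (right) in each library, with each gene as a coloured segment. Receptor sums lay between 35.5 and 42.4 TPM and were mostly Erbb2 and Erbb3, while ligand sums lay between 53.1 and 109 TPM and were mostly Hbegf and Areg.

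Hbegf and Areg stood at the head of the order by per-length level (mean of log2 TPM with 0.1 added), with ranges over the 4 libraries of 21.9 to 55.1 TPM (median 37.3) and 23.2 to 56.8 TPM (median 32.2). These ranges overlap, so the order of the first pair is not settled. Erbb2 (14.7 to 20.3 TPM) and Erbb3 (13.4 to 16 TPM) followed, overlapped each other and lay below the range of Areg. Egfr came next at 4.55 to 9.29 TPM, below the range of Erbb3. Ereg (3.55 to 11.3 TPM) and Tgfa (2.84 to 4.4 TPM) overlapped with their neighbours in the order, as did Nrg1 (0.808 to 5.21 TPM), Btc (0.406 to 1.52 TPM) and Erbb4 (0.16 to 1.18 TPM). Among protein-coding genes, Areg reached the 94.4th to 97.3rd percentile by TPM in single libraries, Erbb2 the 87.9th to 93.2nd, and Erbb4 the 22.9th to 45.9th.

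The receptors differed in how far they varied between tumours. Egfr, the receptor of most of these ligands (ENSMUSG00000020122, chromosome 11, 16752203 to 16918158, plus strand), stood at 64.3 CPM in HET 1 and 61.5 in HET 2, against 58.1 in WT 1 and 125 in the library labelled WT 2. The first 3 of these libraries lay close together and the fourth stood at 1.94 times the next highest, so the groups overlapped. The log2 fold change was -0.54 ± 0.41 (SE, n = 2 libraries per genotype, edgeR adjusted p = 0.986), with a 95% interval from -1.54 to 0.47. Without the library labelled WT 2 it was 0.11. Summed fibroblast markers and 4 of the 8 basal markers described below were also highest in that library, and their part in the Egfr level was not tested.

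Erbb2, the partner receptor without a known ligand (ENSMUSG00000062312, chromosome 11, 98412470 to 98437716, plus strand), stood at 101 CPM in HET 1 and 67.8 in HET 2, against 86.8 in WT 1 and 90.5 in the library labelled WT 2. By CPM the WT libraries lay between the HET libraries, so the spread within HET covered the whole range. By TPM, Erbb2 stood at 20.3 and 16.1 in HET, against 14.8 in WT 1 and 14.7 in the library labelled WT 2. Erbb2 was thus higher in both HET libraries on that scale, so the order depends on the scaling between libraries. Its log2 fold change was -0.07 ± 0.32 (SE), with a 95% interval from -0.84 to 0.70. The exons of Erbb2 overlap those of Mien1 on the opposite strand by 9 bases, which is 0.17% of its exon length. Its coding neighbours, which share a segment known to be amplified together in human breast cancer, differed in how even they were across libraries. Pgap3 ranged from 5.27 to 5.89 CPM and Mien1 from 11.2 to 13.9. Grb7, an adaptor that binds ERBB2, stood at 17.9 and 22.1 CPM in HET, against 17.7 in WT 1 and 14.2 in the library labelled WT 2. The lymphoid factor gene Ikzf3 stood at 6.82 and 8.09 CPM in HET, against 2.39 in WT 1 and 0.142 in the library labelled WT 2. The remaining neighbours, Tcap and Pnmt, had at most 0.356 CPM and did not pass the filter.

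Erbb3, which encodes the neuregulin receptor with the weakly active kinase (ENSMUSG00000018166, chromosome 10, 128567523 to 128589652, minus strand), stood at 86.1 CPM in HET 1 and 73.2 in HET 2, against 109 in WT 1 and 95.2 in the library labelled WT 2. It averaged 79.7 ± 9.12 CPM in HET and 102 ± 9.39 CPM in WT (SD, n = 2 each), and the groups did not overlap. The log2 fold change was -0.35 ± 0.28 (SE), with a 95% interval from -1.04 to 0.34 and an adjusted p of 0.986 in edgeR. It was negative under every alternative fit of the counts, between -0.53 and -0.26. On the per-length scale, which is not scaled by TMM, Erbb3 stood at 15 and 15.1 TPM in HET, against 16 in WT 1 and 13.4 in the library labelled WT 2, so its groups overlapped there. The mean TPM of Erbb3 was 15 in HET and 14.7 in WT. Both the separation of the groups and the direction therefore depend on the scaling between libraries.

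Erbb4, a receptor of neuregulins and some EGFR ligands (ENSMUSG00000062209, chromosome 1, 68032186 to 69108059, minus strand), was last in the order by per-length level and had the widest fold range over the libraries. It stood at 13.9 CPM in HET 1 and 2.97 in HET 2, against 2.23 in WT 1 and 3.56 in the library labelled WT 2. HET 1 was 3.90 times the next highest library, on 214 counts, and the other libraries held 28 to 50 counts. By CPM HET 2 lay between the WT libraries, so the groups overlapped. By TPM HET 2 stood at 0.297, against 0.16 in WT 1 and 0.243 in the library labelled WT 2. The groups therefore did not overlap by TPM, though HET 2 rested on 40 counts. The log2 fold change of 1.54 ± 0.81 (SE) had a 95% interval from -0.43 to 3.51 and became -0.03 without HET 1.

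**Figure D2:**
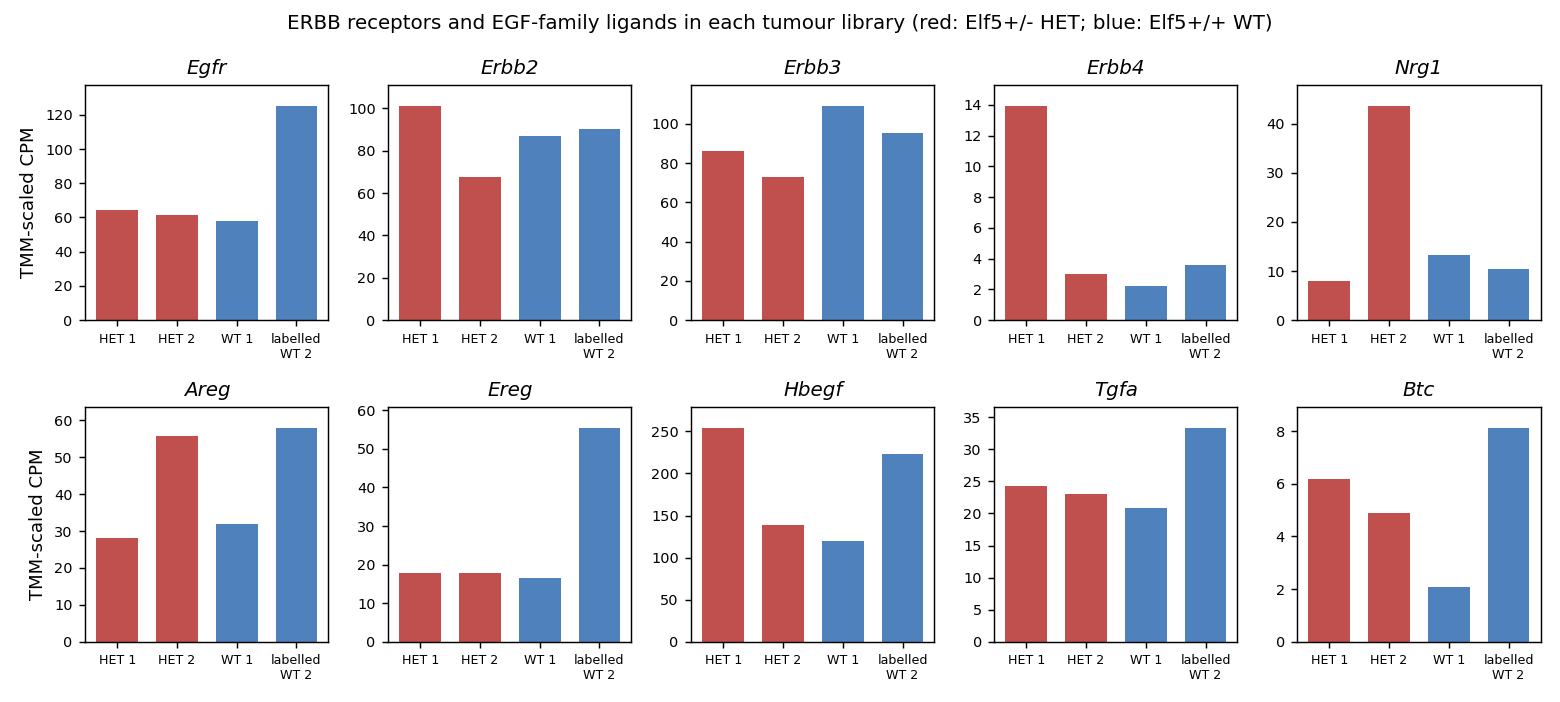
TMM-scaled CPM (vertical axis, from 0, a separate scale for each gene) of the 10 genes in each library, with HET in red and WT in blue. Erbb4 was highest in HET 1 (13.9 CPM), Nrg1 in HET 2 (43.6 CPM), and Egfr and Ereg in the library labelled WT 2 (125 and 55.4 CPM).

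Among the ligand genes, Nrg1 was high in a single HET tumour. Nrg1 encodes neuregulin, the ligand of ERBB3 and ERBB4 (ENSMUSG00000062991, chromosome 8, 31814551 to 32884029, minus strand), and is annotated with 18 transcripts that the counts per gene do not separate. It stood at 7.98 CPM in HET 1 and 43.6 in HET 2, against 13.2 in WT 1 and 10.5 in the library labelled WT 2. HET 2 was 3.30 times the next highest library and HET 1 was the lowest of the 4, so the HET libraries enclosed the WT libraries. Its log2 fold change of 1.12 ± 0.76 (SE) had a 95% interval from -0.73 to 2.96 and was -0.63 without HET 2. The lincRNA gene Gm26578 overlaps its exons on the opposite strand by 482 bases (4.66% of its exon length), and reads of such pairs cannot be told apart where the counting did not use strand. Sums of several marker lists were also highest in HET 2. Of the 4 B cell markers, 1 passed the filter and 2 were at 0 in at least 1 library. They summed to 20.7 CPM in HET 2, against 2.40 in HET 1, 2.07 in WT 1 and 0.641 in the library labelled WT 2. In the same order, endothelial markers summed to 488, 273, 338 and 66.7 CPM. Luminal progenitor and alveolar markers summed to 754, 355, 274 and 263 CPM, with Csn3 alone at 520 in HET 2. The part of such cells in the Nrg1 level was not tested. Erbb4 and Nrg1 were thus high in different HET tumours. Their root mean square difference was the largest of all 45 pairs of the 10 genes, at 1.68 in log2 CPM centred over the 4 libraries. That measure also grows with how far each gene varies, and Erbb4 and Nrg1 had wide fold ranges (6.24 and 5.46).

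The 3 ligand genes on chromosome 5 lie close together. Ereg occupies 91074622 to 91093646 (plus strand), Areg 91139599 to 91148432 (plus strand) and Btc 91357261 to 91402994 (minus strand), and Epgn, which encodes epigen, is their coding neighbour on the lower side. By CPM all of these genes were highest in the library labelled WT 2, but by TPM Areg was highest in HET 2 (56.8, against 40.3 in the library labelled WT 2), and they did not share a pattern in the other libraries.

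Ereg (ENSMUSG00000029377), the gene of the EGFR and ERBB4 ligand epiregulin, stood at 17.7 CPM in both HET libraries, against 16.5 in WT 1 and 55.4 in the library labelled WT 2. The first 3 libraries were nearly level and the fourth was 3.12 times the next highest. The log2 fold change was -1.02 ± 0.57 (SE, n = 2 libraries per genotype, edgeR adjusted p = 0.986), with a 95% interval from -2.42 to 0.37. It was -1.65 without WT 1 (edgeR adjusted p = 0.0472, against 0.469 to 1 under the other alternatives, with the lone WT library assumed to vary like HET), and 0.10 without the library labelled WT 2. Without WT 1 the test called 657 genes in all, so Ereg was not alone in passing. Exons of the antisense gene Gm19610 overlap 141 bases of Ereg (3.42% of its exon length).

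Areg (ENSMUSG00000029378), the amphiregulin gene, stood at 28.0 CPM in HET 1 and 55.8 in HET 2, against 31.8 in WT 1 and 57.9 in the library labelled WT 2. Each genotype thus held 1 low and 1 high library, and the low and high values were alike between genotypes. Its log2 fold change was -0.10 ± 0.46 (SE), with a 95% interval from -1.23 to 1.03. Btc (ENSMUSG00000082361), the betacellulin gene, stood at 6.17 and 4.90 CPM in HET, against 2.07 in WT 1 and 8.12 in the library labelled WT 2, and rested on 26 to 114 counts. The WT libraries differed 3.93-fold and enclosed both HET libraries, and the log2 fold change was 0.12 ± 0.72 (SE). Epgn, which is not among the 10 genes, stood at 5.78 and 5.49 CPM in HET, against 1.67 in WT 1 and 26.5 in the library labelled WT 2.

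The other coding genes around this cluster had other patterns. The chemokine gene Cxcl2 was lowest in the library labelled WT 2, at 20.4 CPM, against 74.3 and 49.5 in HET and 59.4 in WT 1. Mthfd2l, a mitochondrial folate enzyme, was highest there at 18 CPM, against 12.3 and 15.6 in HET and 10.7 in WT 1. Parm1 was highest in HET 2 (42.7 CPM), and Rchy1 and Odaph were highest in WT 1 (20.2 and 5.17 CPM).

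Hbegf (ENSMUSG00000024486) encodes the heparin-binding EGF-like growth factor and had the largest counts of the 10 genes. It stood at 254 CPM in HET 1 and 139 in HET 2, against 120 in WT 1 and 223 in the library labelled WT 2. The libraries again fell as 1 high and 1 low in each genotype, but here HET 1 was the high HET library, whereas Areg was high in HET 2. The log2 fold change was 0.20 ± 0.45 (SE), with a 95% interval from -0.90 to 1.30. It was 0.72 without the library labelled WT 2 and -0.18 without WT 1.

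Tgfa (ENSMUSG00000029999, chromosome 6, 86195223 to 86275719, plus strand), the TGF-alpha gene, was the steadiest ligand gene. It stood at 24.2 and 23.1 CPM in HET, against 20.8 in WT 1 and 33.3 in the library labelled WT 2, a 1.60-fold range. Its log2 fold change was -0.19 ± 0.35 (SE), with a 95% interval from -1.06 to 0.67, and 0.19 without the library labelled WT 2.

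**Figure D3:**
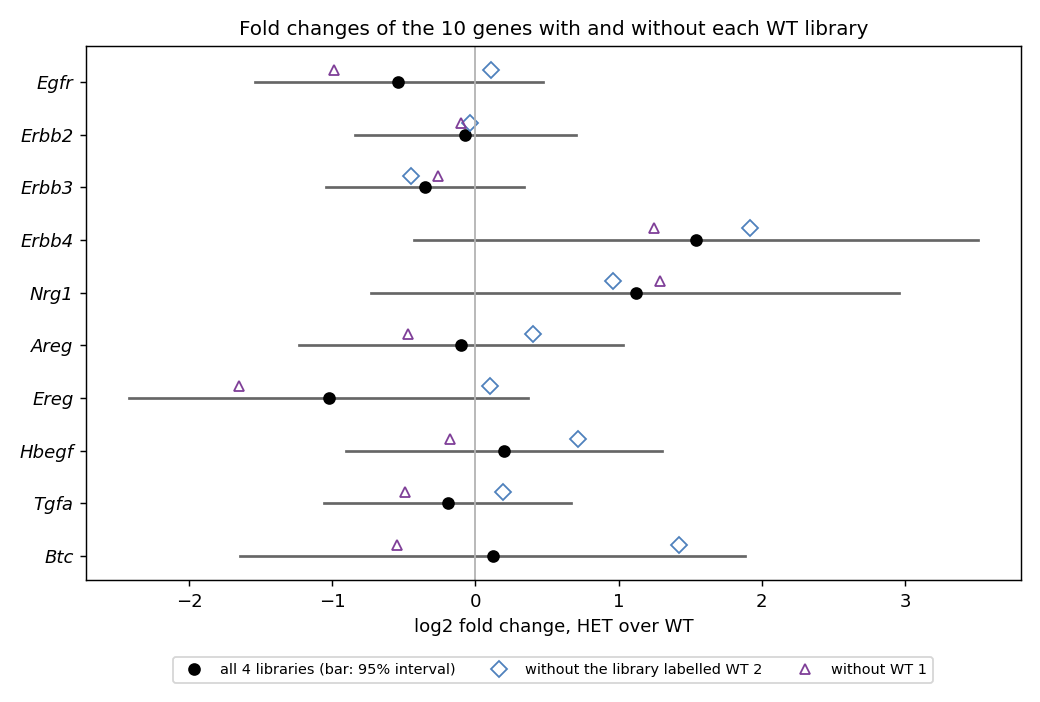
Log2 fold change of HET over WT (horizontal axis) for each gene: black points use all 4 libraries with bars for the 95% interval, blue diamonds leave out the library labelled WT 2, and purple triangles leave out WT 1. All 10 intervals include 0, and Egfr, Ereg, Areg and Tgfa lie below 0 with all libraries but above 0 without the library labelled WT 2.

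The make-up of the ligand pool differed between tumours. By per-length level, Hbegf made up 61.3% of the 6 ligands in HET 1 and 32.8% in HET 2, against 41.3% in WT 1 and 40% in the library labelled WT 2. Areg made up 26.8% and 52.3% in HET, against 43.7% in WT 1 and 41.4% in the library labelled WT 2. The HET tumours thus lay on either side of both WT tumours for both genes. Which ligand was the larger depended on the gene length used: Areg exceeded Hbegf in every library except HET 1 with merged exons and in 0 libraries with the longest transcript. With the longest transcript Hbegf made up 71.2% and 42.7% in HET, against 52.3% in WT 1 and 51.6% in the library labelled WT 2, and Areg 18.6% and 40.7% in HET, against 33.1% in WT 1 and 31.9% in the library labelled WT 2. The neuregulin share was 0.899% in HET 1 and 4.79% in HET 2, against 2.13% in WT 1 and 0.885% in the library labelled WT 2. Among receptors, Erbb2 and Erbb3 together held most of the transcripts in each library. Erbb2 made up 47.8% and 42.2% in HET, against 41.6% in WT 1 and 39% in the library labelled WT 2. Both HET libraries were thus above both WT libraries in this share, for which no background over all genes was counted. Erbb3 made up 35.4% and 39.5% in HET, against 45.1% in WT 1 and 35.6% in the library labelled WT 2. Egfr held 14% and 17.6% in HET, against 12.8% in WT 1 and 24.7% in the library labelled WT 2.

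Library by library, the 10 genes had their highest CPM in HET 1 for 3 genes, in HET 2 for 1, in WT 1 for 1 and in the library labelled WT 2 for 5. Over all genes tested, 26.6% were highest in the library labelled WT 2. That library also had more genes at 0: 44.5% of all 51826 genes, against 29.9% and 31.3% in HET and 30% in WT 1. The part of this in the shares over all genes tested was not tested. WT 1 held the lowest CPM for 6 of the 10 genes, against 19.5% of all genes tested, and the library labelled WT 2 for 0 of the 10, against 38.1%. By TPM the counts differed: HET 1 and HET 2 each held the highest value for 3 genes, WT 1 for 1 and the library labelled WT 2 for 3. The lowest TPM lay in WT 1 for 7 genes, in the library labelled WT 2 for 2 (Erbb2 and Erbb3) and in HET 1 for 1. Erbb2 and Erbb3 were the pair with the smallest root mean square difference (0.196 in centred log2 CPM), followed by Egfr and Tgfa (0.206) and Egfr and Ereg (0.282). This measure also depends on how far genes vary, so genes that vary little lie close whatever their shape. Erbb2 was highest in HET 1 and Erbb3 in WT 1, while Egfr and Ereg were both highest in the library labelled WT 2. Such differences between patterns rest on 4 libraries and carry no test.

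**Figure D4:**
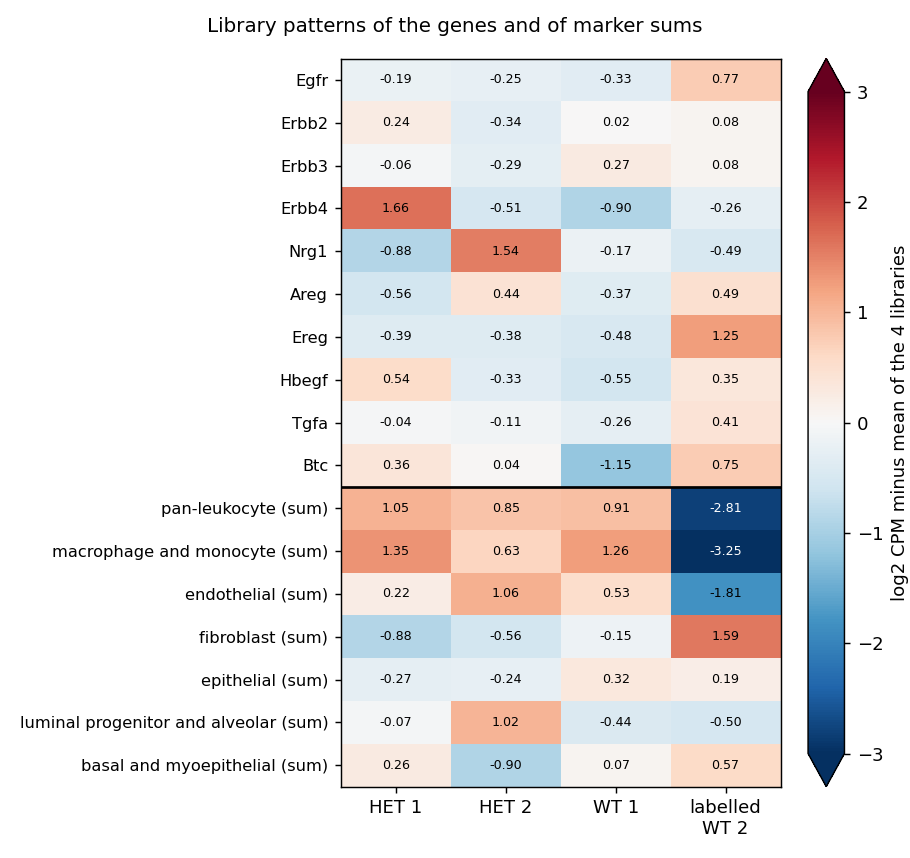
Log2 CPM minus the mean of the 4 libraries (colour and printed value) for the 10 genes and, under the line, for summed markers of cell types, with colours ending at -3 and 3. Ereg (1.25) and Egfr (0.77) were highest in the library labelled WT 2, where summed fibroblast markers were also highest (1.59) and summed leukocyte markers lowest (-2.81).

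Of the 8 markers of basal and myoepithelial cells, Krt5, Krt17, Trp63 and Mylk were highest in the same library as Egfr and Ereg, and the others were not. Trp63, which encodes the basal transcription factor p63, stood at 21.6 and 8.39 CPM in HET, against 7.48 in WT 1 and 72.2 in the library labelled WT 2. Krt5, a basal keratin, stood at 29.3 and 12.7 CPM in HET, against 17.5 in WT 1 and 71.2 in the library labelled WT 2. The basal keratin gene Krt14 and the actin gene Acta2 were highest in WT 1, at 467 and 196 CPM, against 397 and 180 in the library labelled WT 2. Myh11, a smooth muscle myosin gene, and Oxtr, the oxytocin receptor gene, were lowest in the library labelled WT 2, at 68.3 and 3.85 CPM. Summed over the 8 genes of the basal list, the level was 1070 and 478 CPM in HET, against 939 in WT 1 and 1330 in the library labelled WT 2. No gene of this list was at 0 in any library, and the groups did not overlap for 2 of the 8 (25%), both lower in HET, against 15.9% of all genes tested. Macrophage markers summed to 869 and 529 CPM in HET, against 817 in WT 1 and 35.9 in the library labelled WT 2. Ereg was highest where these macrophage markers were lowest, and the part of basal, fibroblast or macrophage cells in the ligand levels was not tested.

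For the 3 more abundant receptor genes, the coding genes of nearest library pattern were sought among 12864 named genes of mean log2 CPM of at least 1. The nearest to Egfr were Dyrk1a, Glb1 and St3gal2, at root mean square differences of 0.0314 to 0.0363. Those nearest to Erbb2 were Exd2, Nhlrc3 and Etfbkmt (0.00723 to 0.0291), and those nearest to Erbb3 were Trip11, Lemd3 and Ivns1abp (0.0179 to 0.0263). Dyrk1a, for example, stood at 107 and 103 CPM in HET, against 92.1 in WT 1 and 202 in the library labelled WT 2. With 4 libraries such likeness is common: 64, 160 and 244 genes lay within 0.1 of Egfr, Erbb2 and Erbb3 in that order.

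The rest of the pathway was read from 6 lists holding 85 genes, all of which passed the filter, and 0 of the 85 passed the edgeR test at an adjusted p under 0.05. Both HET libraries were above both WT libraries for 11 of them (12.9%, against 19.6% of all genes tested) and below for 21 (24.7%, against 15.9%). Their median log2 fold change was -0.15, against 0.04 over all genes tested. At an unadjusted p under 0.05 there were 3 higher (Nrg2, Spry1 and Dusp5) and 1 lower (Stub1).

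Among the other ligand genes, Nrg2 had the smallest unadjusted p. Nrg2, whose product binds ERBB3 and ERBB4, stood at 4.15 CPM in HET 1 and 15.1 in HET 2, against 0.557 in WT 1 and 0.142 in the library labelled WT 2. Both HET libraries were above both WT libraries, on 64 and 204 counts against 7 and 2, and the log2 fold change was 4.77 ± 1.00 (SE; unadjusted p = 0.00297, edgeR adjusted p = 0.986). Nrg2 was therefore highest in the same tumour as Nrg1, whereas HET 1 held more Nrg2 than either WT library but the least Nrg1. Nrg3, another neuregulin gene, stood at 1.43 and 1.48 CPM in HET, against 0.795 in WT 1 and 0.285 in the library labelled WT 2, on 4 to 22 counts. Nrg4 stood between 0.89 and 1.19 CPM in all libraries. Of the 5 other ligand genes 3 had a log2 fold change above 0, against 11392 of the 21607 genes tested, with a median of 0.25.

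Of the 9 genes of ligand release, 2 had a log2 fold change above 0, against 11392 of the 21607 genes tested. In this list 0 genes were separated upwards and 3 (33.3%) downwards, against 19.6% and 15.9% of all genes tested. The median log2 fold change was -0.36, and 0 of the 9 passed the edgeR test. Adam17, the main sheddase of EGFR ligands, stood at 68.1 and 45.0 CPM in HET, against 80.5 in WT 1 and 78.7 in the library labelled WT 2 (log2 fold change -0.49 ± 0.32, SE). Adam12, another metalloprotease, stood at 57.4 and 44.4 CPM in HET, against 60.9 in WT 1 and 190 in the library labelled WT 2. Adam10, which sheds betacellulin, stood at 115 and 120 CPM in HET, against 78.8 in WT 1 and 134 in the library labelled WT 2, and Adam15 had a log2 fold change of 0.03.

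Among the 25 adaptors and proximal effectors, 5 genes (20%) were separated upwards and 5 (20%) downwards, against 19.6% and 15.9% of all genes tested. The median log2 fold change of this list was -0.17. The signal transducer gene Stat5b stood at 35.2 and 38.7 CPM in HET, against 25.3 in WT 1 and 23.1 in the library labelled WT 2, and Stat5a had a log2 fold change of 0.68 ± 0.34 (SE). Sos2, a guanine nucleotide exchange factor for RAS, stood at 27.7 and 26.9 CPM in HET, against 45.4 in WT 1 and 35.9 in the library labelled WT 2. Pik3r3, a regulatory subunit of PI3 kinase, had a log2 fold change of -0.86 ± 0.46 (SE). None of these genes passed the edgeR test (adjusted p = 0.986 for each of the 4).

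Of the 20 inhibitors and degraders of the receptors, 1 was separated upwards (5%, against 19.6% of all genes tested) and 7 downwards (35%, against 15.9%). Their median log2 fold change was -0.21. Stub1, a ubiquitin ligase that works with heat shock proteins, stood at 45.6 and 41.4 CPM in HET, against 72.6 in WT 1 and 79.7 in the library labelled WT 2 (log2 fold change -0.81 ± 0.28, SE, unadjusted p = 0.0261, edgeR adjusted p = 0.986). Rnf41, the ubiquitin ligase that limits ERBB3 protein, stood at 18.4 and 18.8 CPM in HET, against 26.6 in WT 1 and 34.3 in the library labelled WT 2. Errfi1, a feedback inhibitor of EGFR and ERBB2 kinases, was the 1 gene separated upwards, at 268 and 316 CPM in HET, against 240 in WT 1 and 238 in the library labelled WT 2. Sh3gl2, an endocytic adaptor, had a log2 fold change of 0.60 ± 0.62 (SE).

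RAS-MAPK core genes had a median log2 fold change of -0.30. Of these 10 genes, 1 (10%) was separated upwards (Araf) and 3 (30%) downwards, against 19.6% and 15.9% of all genes tested. The RAS gene Nras and the kinase gene Map2k1 had log2 fold changes of -0.40 and -0.43, and neither passed the edgeR test.

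Output and feedback genes of RAS-MAPK signalling had 11 of 16 log2 fold changes above 0, against 11392 of the 21607 genes tested, and a median of 0.16. In each direction 2 genes (12.5%) were separated, against 19.6% upwards and 15.9% downwards of all genes tested. Spry1, a feedback inhibitor, stood at 47.8 and 78.2 CPM in HET, against 28.3 in WT 1 and 37.1 in the library labelled WT 2 (unadjusted p = 0.0387, edgeR adjusted p = 0.986). Dusp5, a phosphatase of ERK, stood at 89.0 and 116 CPM in HET, against 66.1 in WT 1 and 29.1 in the library labelled WT 2 (unadjusted p = 0.0474, edgeR adjusted p = 0.986). Fosl1, an AP-1 subunit gene, and Spred1, a RAS inhibitor, were separated downwards, with log2 fold changes of -0.65 ± 0.29 and -0.33 ± 0.27 (SE). The ETS factor gene Etv5 and the cyclin gene Ccnd1, named after their values were seen, stood at 180 and 115 CPM in HET 2, against 64.8 and 130 in WT 1. In the other libraries they were lower, at 43.3 and 26.6 CPM in HET 1 and at 37.0 and 15.3 in the library labelled WT 2. The immediate early genes Fos and Egr1, also named after their values were seen, stood at 1050 and 1480 CPM in HET 1 and 892 and 1210 in HET 2, against 1040 and 1020 in WT 1 and 913 and 1240 in the library labelled WT 2.

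**Figure D5:**
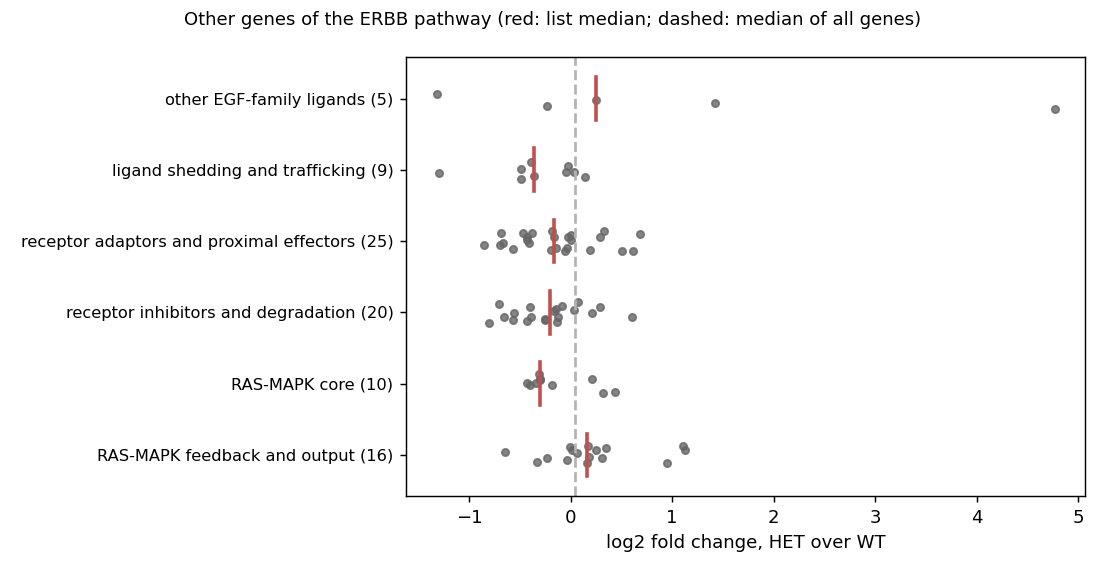
Log2 fold change of HET over WT (horizontal axis) for each of 85 other genes of the ERBB pathway, by list with its number of genes; red bars are list medians and the dashed line is the median of all genes tested (0.04). List medians lay between -0.36 and 0.25, and Nrg2 stood farthest from 0 at 4.77.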

How the data were processed

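Gene-level estimated counts were made by the authors with Salmon, and the submitters' processing notes name genome build GRCm38.p5. They were deposited as whole numbers for 4 libraries. The Salmon version, transcript annotation and strand setting are not given in these sources. Gene names, lengths and positions were taken from GENCODE M21, which holds 51633 of the 51826 identifiers. Genes were filtered with filterByExpr, scaled by TMM and fitted with genotype as the only term in edgeR 4.0.16 (R 4.3.3, quasi-likelihood F test, Benjamini-Hochberg adjustment over all 21607 genes tested). The fit had 2 residual degrees of freedom and a common biological coefficient of variation of 0.46. Per-length levels are counts per kilobase of merged exons scaled to 1 total for every library (TPM). Standard errors were taken from the log2 fold change and its F statistic. Floors of 3 counts cover counting error only.

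The 10 genes and the pathway and marker lists were chosen with earlier results of these data known. The pathway genes named were those of smallest unadjusted p, up to 2 per list and direction, unless said otherwise. Some genes of the RAS-MAPK list are not reported here. Alternatives were DESeq2 1.42.0, limma-voom 3.58.1, other scalings, filters, gene sets, thresholds and gene lengths, and leaving out each library. The fit was checked on simulated counts.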

Additional observations from a re-analysis of the deposited data

How the results depend on the processing

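With all 4 libraries and edgeR, 0 genes were called. DESeq2 called 134 genes and a fit with no filter beyond 1 count called 324, while RLE or upper-quartile scaling, a filter of 1 CPM in 2 libraries, protein-coding genes alone, library sizes without other cell types, limma-voom and an adjusted p under 0.1 called 0. Leaving out 1 library gave 0 to 657 genes: 657 without WT 1, 9 without the library labelled WT 2, and 0 without either HET library. The cause of these differences was not tested.

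Of 120 alternative fold changes over the 10 genes, 105 kept their sign and side of the threshold, 14 changed sign, and 1 passed the threshold (Ereg without WT 1, -1.65). Erbb3 kept its sign in all 12 of its alternatives, which were fits of the counts. Without the library labelled WT 2 the sign changed for Egfr (0.11), Areg (0.40), Ereg (0.10) and Tgfa (0.19). Without WT 1 it changed for Hbegf (-0.18) and Btc (-0.55). Without HET 1 it changed for Erbb4 (-0.03), Areg (0.24), Hbegf (-0.37) and Btc (-0.15), and without HET 2 for Erbb2 (0.12) and Nrg1 (-0.63). Leaving out 1 library moved the fold changes over these ranges: Egfr -0.99 to 0.11, Erbb2 -0.44 to 0.12, Erbb4 -0.03 to 2.18, Nrg1 -0.63 to 1.83, Areg -0.77 to 0.40, Ereg -1.65 to 0.10, Hbegf -0.37 to 0.72, Tgfa -0.49 to 0.19 and Btc -0.55 to 1.42. Upper-quartile scaling gave 0.02 for Erbb2, with a median over all genes of 0.12, and the fit without a filter gave -0.02 for Btc. A lone library left in a genotype was assumed to vary like the other genotype. By mean TPM with merged exons, some genes with a negative log2 fold change were higher in HET than in WT. These were Erbb2 (18.2 against 14.7), Erbb3 (15 against 14.7), Areg (40.5 against 31.7) and Tgfa (4.15 against 3.58). The remaining genes of the 10 kept their direction. Lengths from the longest transcript moved 8 of 20 mean per-length levels by more than 1 SD, and the order of the 10 genes stayed the same. With that length the mean for Hbegf was 71.1 TPM in HET and 48.1 in WT, against 45.4 and 30.4 with merged exons, and for Nrg1 5.34 in HET and 1.80 in WT, against 3.01 and 0.996. No paired analysis was possible because both WT titles carry the tumour number 1, so the numbers do not pair the samples.

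With 2 libraries per genotype and 26 to 114 counts for Btc and 28 to 214 for Erbb4, the intervals of single genes span up to several-fold differences in either direction.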
